A study of Drosophila melanogaster with 30 samples.

Results

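The genes described here encode, in the nucleus, the subunits of the mitochondrial oxidative phosphorylation complexes of Drosophila melanogaster. They were chosen by symbol alone: every FlyBase gene of the count files whose symbol starts with ND-, UQCR-, COX followed by a digit, ATPsyn, or Sdh followed by A, B, C or D. The rule found 87 of 16868 genes. Of these, 63 are called core genes, with 34 in complex I, 4 in complex II, 6 in complex III, 8 in complex IV and 11 in complex V. The other 24, whose symbols end in L or in L and a digit, are paralogs of such subunits: 6 for complex I, 3 for complex II, 3 for complex III, 8 for complex IV and 4 for complex V. Of the 13 subunits encoded by the mitochondrial genome itself, none has such a symbol, and they are given beside the members where their values touch a result.

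Oxidative phosphorylation makes most of the ATP of an aerobic cell. Complex I (NADH dehydrogenase) and complex II (succinate dehydrogenase) feed electrons into the chain, complex III (the cytochrome bc1 complex) passes them to cytochrome c, complex IV (cytochrome c oxidase) passes them to oxygen, and complex V (ATP synthase) uses the proton gradient that results. Insect flight muscle is among the tissues richest in mitochondria. In the Drosophila testis mitochondria fuse and wrap into a large body that elongates along the growing sperm tail, and many testis genes are duplicates of more widely expressed ones, often made by retroposition, which leaves a copy without introns.

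Poly(A) RNA was sequenced from 30 libraries in 15 groups of 2, which the labels call biological replicates without saying whether they came from separate cultures, so that p-values measure the spread between these libraries. Adult tissues were taken at an age of 2 days: whole female bodies and ovaries of the genotypes XX, XXYohio and XXYcongo, and whole male bodies and testes of XY, XYYohio and XYYcongo. The fifth tissue was the central nervous system (CNS) of third-instar female larvae, again XX, XXYohio and XXYcongo. The labels write the controls with a caret between the sex chromosomes and do not explain it, and Yohio and Ycongo are named Y chromosomes added to the control genotype, so XX females are the sole groups with no Y. Levels are CPM, the counts of a gene scaled to the library total and corrected with TMM factors over all 30 libraries, and levels of different genes are compared only per kilobase (kb) of exon. These are bulk samples, so fewer cells of a type and less RNA per cell cannot be told apart.

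Total counts per library ran from 6026258 to 15363636, and a count of 0 allows up to 3 counts, which is 0.177 to 0.589 CPM in a single library (counting error only). FDY, a gene of the Y chromosome, had 3 and 5 counts in the XX female bodies and 70 to 114 in those with an added Y. In ovaries it had 32 and 16 counts in XX and 397 or more with an added Y. In the CNS it had 109 and 74 counts in XX and 152 or more with an added Y. The groups did not overlap within a tissue, but the XX counts of the CNS lay within the range of female bodies with an added Y. Neuron markers summed to 1701 to 2826 CPM in the larval CNS, female germline markers to 7608 to 11620 CPM in ovaries and male germline markers to 10830 to 20860 CPM in testes, each the tissue with the highest median, though the lowest CNS and ovary sums lay within the ranges of male and female bodies. The testis libraries also held 32430 to 52050 CPM of 8 male accessory gland markers, above the 5482 to 12920 CPM of the male bodies, and 6 of the 8 were called higher there. Among testes, XY replicate 2 and XYYcongo replicate 1 stood apart, with male germline sums of 20860 and 18500 CPM against 10830 to 11980 CPM in the other 4. Among male bodies, XYYcongo replicate 2 had 40.1% of its counts on mitochondrially encoded genes against 9.37 to 15.7% in the other 5, and a male germline sum of 8240 CPM against 1941 to 3076 CPM.

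The paralogs differ from their parent genes in place and in gene structure. In the Ensembl annotation BDGP6.54, 17 of the 24 lie on another chromosome arm than the parent their symbol names. The parents of 5 paralogs lie on the X (ND-20, ND-24, ND-B14.5A, UQCR-14 and stunted, symbol sun, the parent of ATPsynepsilonL), while SdhBL is the single paralog on the X. ND-MNLL and the gene CG45089 have identical counts in every library, so their reads cannot be told apart. A single coding exon was annotated for 11 of 24 paralogs (45.8%), for 1 of their 21 parents (4.76%), for 8 of 63 core genes (12.7%) and for 21.3% of 13683 protein-coding genes. There are 3 close pairs: COX5BL lies 122 bases from COX5B, COX7CL 281 bases from COX7C and COX7AL 2625 bases from COX7A. Chromosome 4 carries 2 parents, ND-49 and ATPsynbeta, which are 3.18% of the core genes, against 0.577% of protein-coding genes.

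The paralogs were highest in the testis libraries, with a single exception. Those libraries also held 32430 to 52050 CPM of accessory gland markers, against 5482 to 12920 CPM in male bodies. The part of that gland in the differences from the male body was not tested. Of 24, 23 had their highest median level in the testis, and COX7AL2 had its highest in the male body. Against the male body, which contains the testes, 23 paralogs were higher in the testis by 1.18 to 2.54 on the log2 scale (median 1.95, largest edgeR adjusted p = 0.0135), where 36.7% of all 14384 genes tested were called higher. Against the ovary all 24 were called higher, the 23 without COX7AL2 by 4.27 to 15.1 (median 11.2), where 49.5% of genes were called higher. Between whole bodies, all 24 were higher in males, where 61.8% of genes were, and the 23 without COX7AL2 differed by 2.60 to 13.0. Fitted changes against tissues at or near 0 counts depend on the prior count that the fit adds. The 24 paralogs together took 0.254 to 0.334% of the nuclear counts of a testis library, 0.0601 to 0.103% in male bodies and at most 0.0034% in the female tissues.

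**Figure D1:**
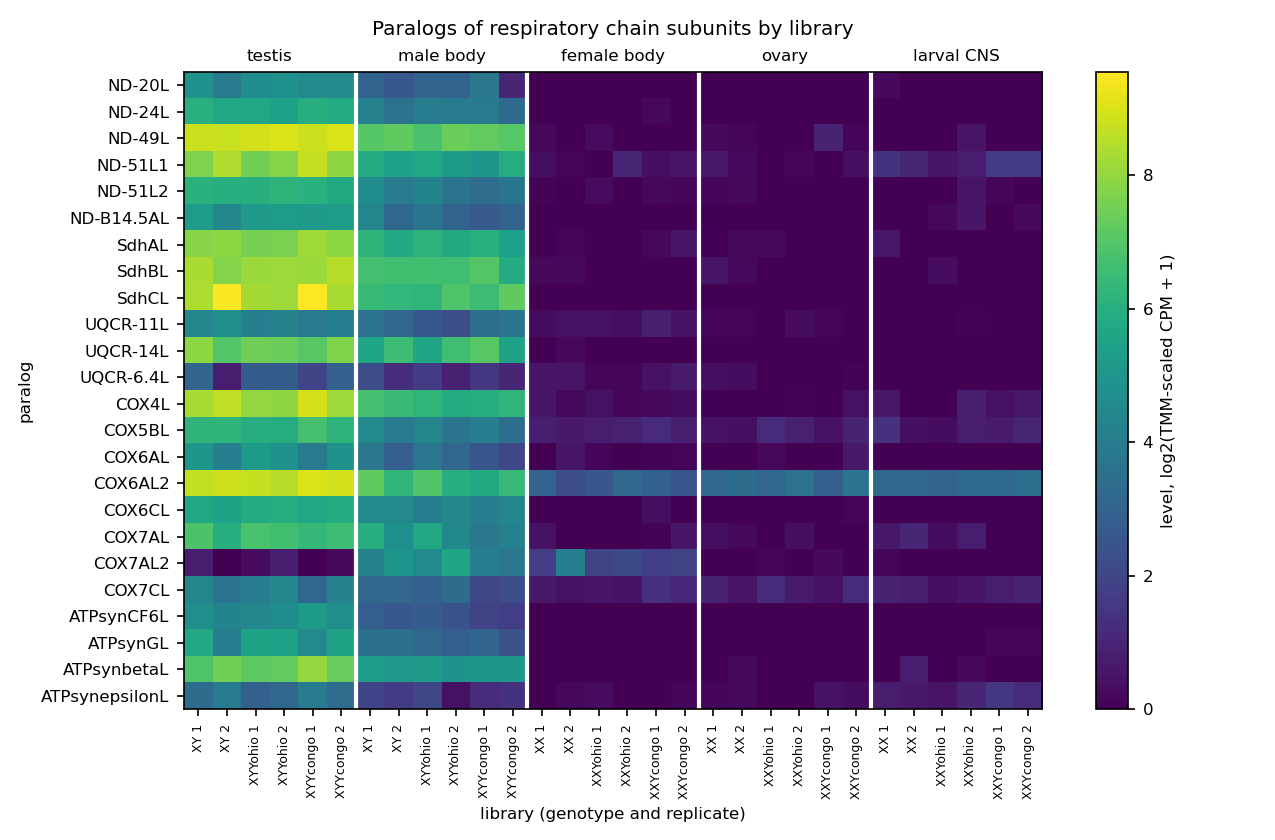
Level of each of the 24 paralogs (rows, ordered by complex) in each of the 30 libraries (columns, grouped by tissue), as log2 of TMM-scaled CPM plus 1. The testis columns are bright for 23 rows, the male body columns are intermediate, and in female tissues COX6AL2 and COX7AL2 are the rows that stand out.

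Among complex I paralogs, ND-49L, a copy of the gene for a subunit of the quinone-binding region, stood at 434, 467 and 515 CPM in testes (lowest, median and highest of 6) and 111, 140 and 167 CPM in male bodies. ND-51 encodes the subunit that oxidises NADH, and it has 2 paralogs on 2R, of which ND-51L1 stood at 183, 235 and 416 CPM in testes and ND-51L2 at 55.1, 65.1 and 72.1 CPM. In both, every testis library lay above every male body library, whose highest values were 59.3 CPM for ND-51L1 and 23.8 CPM for ND-51L2. Of the remaining 3, ND-24L had a testis median of 53.5 CPM, ND-B14.5AL of 35.8 CPM and ND-20L of 23.1 CPM. Of the 6, ND-51L1 was the one with a median of 1 CPM or more outside males, at 0.491, 1.35 and 2.28 CPM in the larval CNS, 1.86 ± 0.49 (SE) on the log2 scale above female bodies (edgeR adjusted p = 0.00234).

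Complex II has 4 subunits, and 3 of them have a paralog. SdhCL, a copy of a membrane anchor, stood at 283, 328 and 747 CPM in testes and 75.0, 89.6 and 148 CPM in male bodies. It had 0 counts in all 18 libraries of female body, ovary and CNS, so its mean testis level was at least 10190-fold, 11830-fold and 10970-fold higher there (floor of 3 counts over the 6 libraries of a tissue). SdhBL, for the iron-sulfur subunit, stood at 217, 281 and 371 CPM in testes and SdhAL, for the flavoprotein, at 191, 237 and 287 CPM. All 3 were higher in every testis library than in any male body library, where the highest values were 148 CPM for SdhCL, 126 CPM for SdhBL and 72.8 CPM for SdhAL. SdhD, the other membrane anchor, has no paralog under the rule.

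Complex III has 3 paralogs. UQCR-14L had 125, 170 and 244 CPM in testes, and its lowest testis value lay below the highest male body value of 134 CPM. UQCR-11L, a copy of the hinge protein gene, had a testis median of 17.3 CPM. UQCR-6.4L stood at 0.67, 6.11 and 7.57 CPM, and its difference from the male body (1.5 ± 0.51, adjusted p = 0.0135) missed the threshold without the testis of XY replicate 1, at 0.64 and an adjusted p of 0.234, and with the control genotypes alone, at 1.41 and an adjusted p of 0.255.

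Complex IV has the most paralogs, and COX6AL2 and COX7AL2 were those with a median of 1 CPM or more in a female tissue. COX6AL2, 1 of 2 paralogs of levy (the fly COX6A gene), stood at 365, 436 and 511 CPM in testes, and its medians were 81.9 CPM in male bodies, 5.96 CPM in female bodies, 8.95 CPM in ovaries and 8.54 CPM in the CNS. Its exons share 67.0% of their bases with Ir75d on the same strand, so reads of the pair may have been counted for either. COX4L stood at 250, 296 and 489 CPM in testes, COX7AL at 63.5, 97.4 and 116 CPM, and COX5BL at 59.8, 71.8 and 106 CPM. Every exon base of COX5BL overlaps Trmt6 on the other strand, and the use of strand in counting is not given in the sources used here. COX6CL, a copy of cyclope (cype), had a testis median of 55.2 CPM, COX6AL of 28.4 CPM and COX7CL of 16.7 CPM.

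COX7AL2 went against the label of a testis paralog. In testes it had 0, 0.203 and 0.751 CPM, in male bodies 12.3, 20.3 and 47.5 CPM, in female bodies 2.35 to 16.3 CPM, and at most 0.189 CPM in any ovary or CNS library. It was lower in testis than in male body by 6.52 ± 0.67 on the log2 scale (edgeR adjusted p = 1.05e-07), where 38.5% of genes were called lower. It was also lower in ovary than in female body (-6.83 ± 0.84, adjusted p = 1.44e-06) and higher in male than in female body (2.45 ± 0.50, adjusted p = 0.000233). Testis against ovary gave 2.76 ± 1.22 (adjusted p = 0.0454), called higher at levels of at most 0.751 and 0.189 CPM. The female value of 16.3 CPM came from XX replicate 2, and the other 5 female bodies lay at or under 3.41 CPM. Both sexes therefore had it in the whole body and neither had it in the gonad libraries above 0.751 CPM.

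The 4 complex V paralogs were those of the catalytic subunit and of 3 small subunits. ATPsynbetaL stood at 119, 154 and 264 CPM in testes and 28.6, 32.3 and 40.2 CPM in male bodies, with 0 counts in all 6 female bodies. ATPsynGL had 16.1, 43.2 and 53.8 CPM in testes, ATPsynCF6L 18.7, 25.0 and 35.7 CPM, and ATPsynepsilonL 6.70, 9.54 and 14.6 CPM. Like SdhCL, ATPsynCF6L had 0 counts in every library of female body, ovary and CNS. Of the 23 paralogs without COX7AL2, 6 had 0 counts in all female bodies, 7 in all ovaries and 7 in all CNS libraries. At a median of 1 CPM or more outside males there were COX6AL2 in all 3 female tissues and ND-51L1 in the CNS.

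Within the testis most paralogs outnumbered their parents. Per kb of exon, the paralog made up 35.6 to 95.8% of the pair in testes (range of 23 medians over 6 libraries, with a median of 74.1%), and 18 of 23 pairs had a median over 50%. In male bodies the medians ran from 0.655 to 42.9%, and 0 of 23 exceeded 50%. The highest testis shares were those of COX5BL (92.2 to 98.1% across libraries), SdhCL (92.9 to 95.0%) and SdhBL (87.0 to 92.0%). The lowest were ATPsynbetaL (28.5 to 49.0%) and SdhAL (30.4 to 45.4%), whose parents kept the larger part in every testis library. COX7AL2 made up at most 0.649% of its pair with COX7A in any testis library and 2.77 to 9.66% in male bodies.

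**Figure D2:**
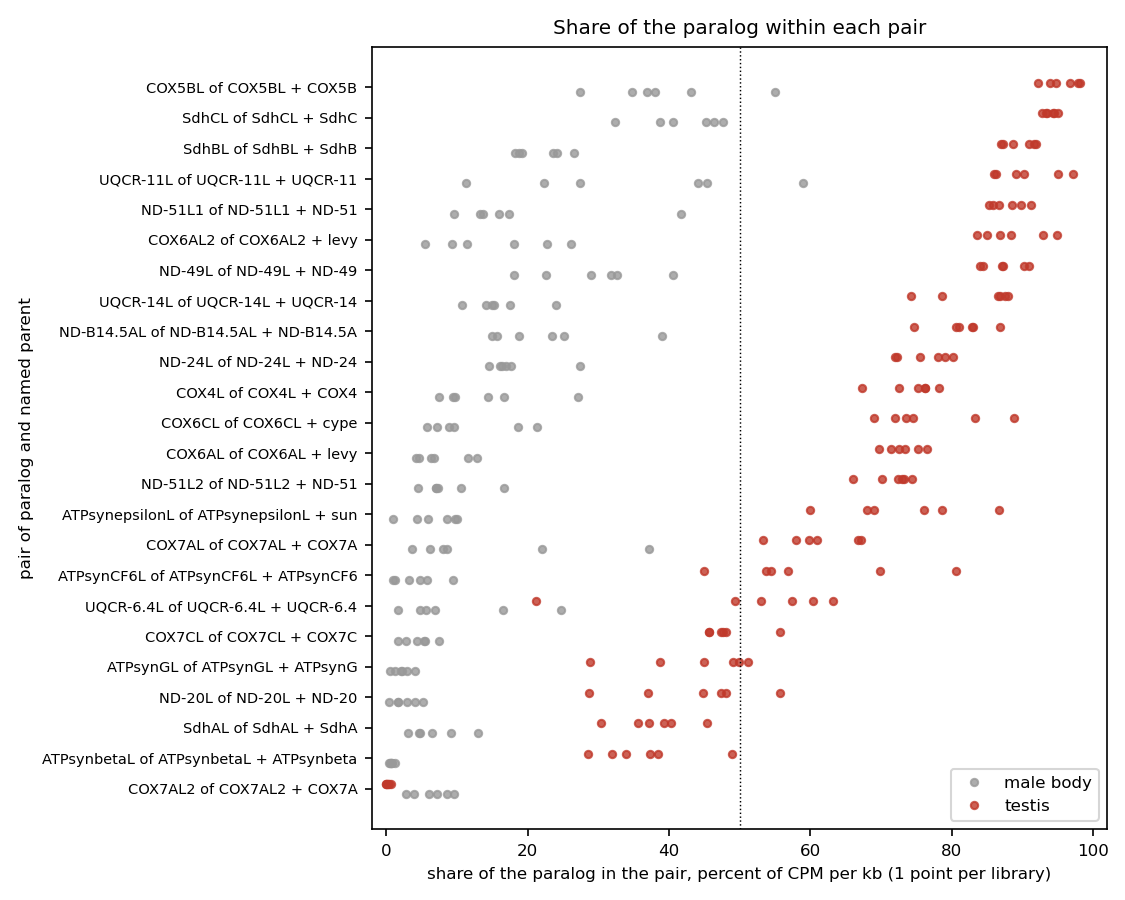
Share of each paralog in the sum of paralog and parent, in percent of CPM per kb, with 1 point for each library of testis and of male body and a dotted line at 50%. The testis points lie to the right of the male body points, except in COX7AL2, where they lie to the left, and UQCR-6.4L, where they overlap. The medians of 18 pairs without COX7AL2 lie past the line in the testis and of none in the male body.

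The paralogs did not move together across the testis libraries. In the libraries that stood apart, XY replicate 2 and XYYcongo replicate 1, SdhCL had 712 and 747 CPM against 283 to 331 CPM in the other 4, and ND-51L1 had 337 and 416 CPM against 183 to 249 CPM. COX7AL went the other way, with 63.5 and 81.7 CPM against 96.0 to 116 CPM, as did COX6AL, with 16.3 and 14.5 CPM against 28.3 to 35.7 CPM. Both libraries together held the 2 highest values for 6 of 23 paralogs (ND-51L1, SdhAL, SdhCL, COX4L, ATPsynbetaL and ATPsynepsilonL) and the 2 lowest for 8 (ND-49L, UQCR-14L, UQCR-6.4L, COX6AL, COX6CL, COX7AL, COX7CL and ATPsynGL). These are 26.1% and 34.8% of the 23 paralogs. The shares were 20.6% and 38.1% for the 63 core genes, and 21.5% and 22.0% over all 12743 genes tested in testes. The split was therefore not particular to the paralogs. One library is a control and the other carries Ycongo, so the split crosses the genotypes.

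Most core genes had their highest level in the male body. Of 63, 55 had their highest median there, while 25 had their lowest in testes, 22 in ovaries, 10 in female bodies and 6 in the CNS. The 6 male bodies had core medians of 93.6 to 169 CPM against 25.9 to 94.4 CPM in female bodies, 21.3 to 40.3 CPM in ovaries, 24.6 to 31.2 CPM in testes and 35.1 to 47.8 CPM in the CNS. As a share of nuclear counts they took 1.52 to 2.88% in male bodies, which overlaps the 0.952 to 2.45% of female bodies. In testes they took 0.325 to 0.364%, close to the 0.254 to 0.334% of the paralogs there. A lower TMM factor raises all levels of a library, and the factors were 0.454 to 0.846 in male and 0.952 to 1.34 in female bodies. The median of all genes was 1.26 higher in male than in female bodies on the log2 scale. The 8 genes with their highest median elsewhere were ND-13A, ND-B22, ND-B8 and ND-MWFE (testis), ND-13B and ATPsynD (CNS), ND-B16.6 (ovary) and UQCR-6.4 (female body). For all 8 the range of the top tissue overlapped that of the male body.

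Per kb, ATPsynbeta, ATPsynC (the ring subunit of ATP synthase) and COX6B were the 3 most abundant core genes in female bodies, male bodies and ovaries. In the male body COX6B had 990 to 8589 CPM per kb (median 2578) and ATPsynbeta 1588 to 3684 (median 2349), so their order there lies within their spread. In the testis the top 4 members of all 87 were paralogs, namely COX4L (median 406 CPM per kb), UQCR-14L (338), SdhCL (334) and ND-49L (275), and the ranges of neighbours in that order overlap. Across the 63 core genes, the order per kb had a Spearman correlation of 0.96 between female body and ovary and of 0.667 between testis and CNS, the highest and the lowest of 10 tissue pairs. Genes are not independent replicates, and gene lengths and all library steps are shared, so these are descriptions.

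Of the 5 tissue contrasts made, testis against male body gave the core median farthest from 0. There, 58 of 63 fell and 1 rose, with a median log2 fold change of -2.16, while 38.5% of all genes were called lower and 36.7% higher and the median of all genes was -0.01. The medians went down by complex, from -1.58 for complex I and -1.78 for complex II to -2.54 for complex III, -3.01 for complex IV and -3.21 for complex V. The 18 core genes with a paralog all fell, with a median of -2.82, and the 45 without one had a median of -1.65, with 40 lower. Across all genes the median of this contrast was 1.14 for those under 800 bases of exon and -0.87 in the longest of 4 length classes, and 41.3% of core genes are under 800 bases against 25.7% of all genes. With the control genotypes alone 33 core genes were lower and 2 higher, and the share of all genes called in that setting is not given. Leaving out any single library gave core medians between -2.26 and -2.03, with 56 to 58 core genes lower.

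COX6B, a subunit on the intermembrane side of complex IV, had 781, 2034 and 6776 CPM in male bodies (lowest, median and highest) and 74.0, 104 and 111 CPM in testes. That is a log2 fold change of -4.71 ± 0.46 (edgeR adjusted p = 1.69e-08). COX7B, of the same complex, had 34.4, 60.4 and 115.2 CPM in male bodies and 1.21, 3.74 and 5.15 CPM in testes (-4.14 ± 0.42, adjusted p = 2.32e-08). ATPsynbeta, the catalytic subunit of ATP synthase, had 3788, 5605 and 8791 CPM and 313, 342 and 360 CPM (-4.14 ± 0.22, adjusted p = 4.38e-12). In all 3 genes the tissues did not overlap, and the 6 testes lay within a narrow range for ATPsynbeta.

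The core genes at the other end are small accessory subunits of complex I. ND-B22 had 12.7, 29.0 and 41.0 CPM in male bodies and 34.8, 45.7 and 56.2 CPM in testes, and it was the 1 core gene called higher (0.74 ± 0.22, adjusted p = 0.00443). Its libraries overlap, and 26.1% of its exon bases lie in CG31855 on the other strand. Of ND-MWFE, 19.8% of exon bases lie in TppII on the other strand and 15.2% in Nrk on the same one. ND-MWFE had 8.81, 15.5 and 27.1 CPM and 19.9, 24.0 and 25.9 CPM (0.53 ± 0.27, adjusted p = 0.0789), and ND-B8 had 4.00, 4.48 and 6.76 CPM and 4.44, 6.76 and 8.78 CPM (0.36 ± 0.33, adjusted p = 0.333). Both passed the threshold with RLE scaling, at 0.94 (adjusted p = 0.00459) and 0.78 (adjusted p = 0.0365).

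**Figure D3:**
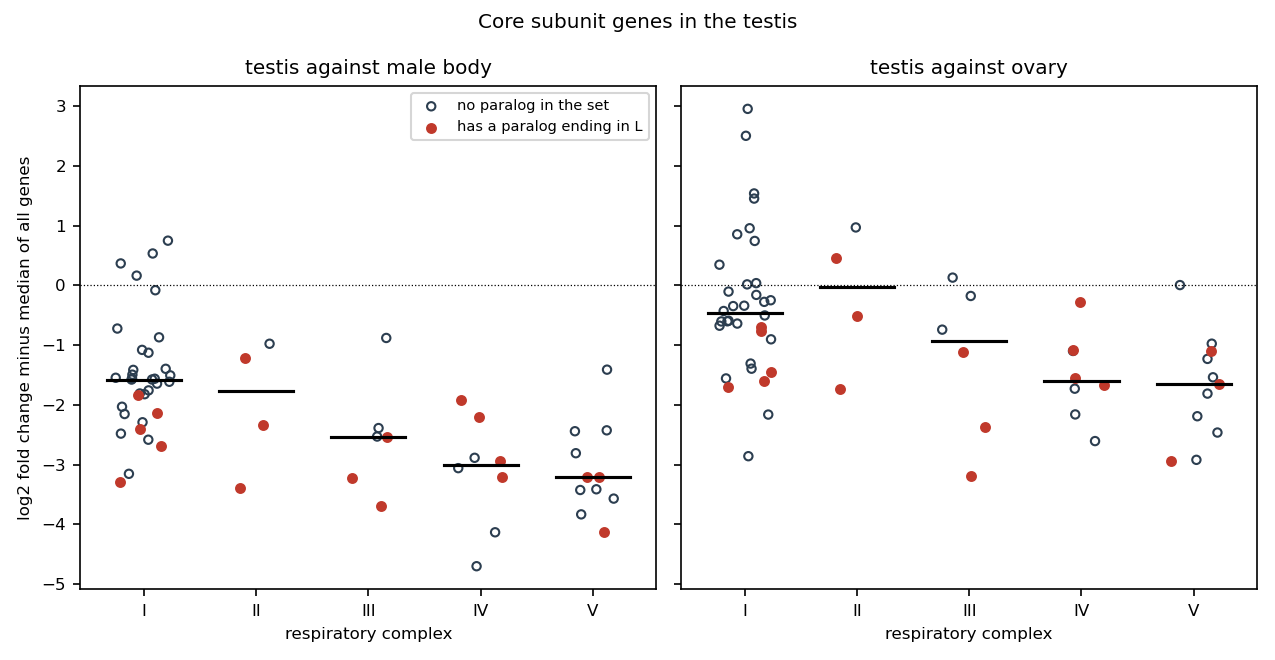
Log2 fold change of each core gene, minus the median of all genes tested, for testis against male body (left) and testis against ovary (right), by respiratory complex. Filled points have a paralog ending in L, open points have none, and bars are medians per complex. In the left panel the bars step down from complex I to complex V, and the points above 0 belong to complex I.

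Other genes of energy metabolism were lower in testis than in male body as well. Of the 13 mitochondrially encoded subunits 12 fell (median -2.38). Of 8 tested genes listed as subunits with other names 7 fell and 1 rose. That list includes Cyt-c-d, a cytochrome c gene and not a subunit of a complex, while Cyt-c-p was listed but not found. Cyt-c1 of complex III was at -4.33 ± 0.22 and blw, the alpha subunit of ATP synthase, at -3.58 ± 0.28. Of 15 genes of the TCA cycle 10 fell and 3 rose (median -2.70), and of 13 glycolytic genes 11 fell and 0 rose (median -3.07). The mitochondrial ribosome did not follow, with 20 of 71 genes lower, 11 higher and a median of -0.31. Carriers went both ways: sesB, an ADP/ATP carrier, fell by 4.73 ± 0.25 and Mpcp1, a phosphate carrier, fell by 7.79 ± 0.44, while Ant2, the other ADP/ATP carrier gene, rose by 1.65 ± 0.31 and Porin2, of the mitochondrial porin family, by 1.95 ± 0.26. All 13 muscle markers fell as well (median -3.68), from a summed 14370 to 39120 CPM in male bodies to 2250 to 2758 CPM in testes, and the part of muscle, or of the accessory gland RNA above, in these differences was not tested.

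Against the ovary, the testis showed no shared direction of the core genes. Of 63, 20 rose and 17 fell with a median of 0.09, but the median of all genes was 0.83, so the core genes lay 0.74 below it, and 49.5% of all genes were called higher and 29.6% lower. With RLE scaling 29 rose and 9 fell, and the share of all genes called in that setting is not given. The genes that moved most belonged to complex I at the upper end, with ND-B8 (3.79 ± 0.39, adjusted p = 1.06e-08), ND-MWFE (3.34 ± 0.30, adjusted p = 9.83e-10) and ND-B22 (2.37 ± 0.23, adjusted p = 3.79e-09). ND-B8 had 0.0911, 0.484 and 0.756 CPM in ovaries, below every testis. At the lower end stood UQCR-6.4, with 20.1, 26.3 and 41.3 CPM in ovaries and 3.24, 5.52 and 7.01 CPM in testes (-2.36 ± 0.33, adjusted p = 1.14e-06), ATPsynbeta (-2.11 ± 0.20, adjusted p = 4.26e-09) and ATPsynC (-2.09 ± 0.29, adjusted p = 1.02e-06). By complex, the medians relative to all genes were -0.47 for complex I, -0.02 for complex II, -0.93 for complex III, -1.60 for complex IV and -1.65 for complex V.

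Ovary against female body gave 26 lower core genes and 0 higher, where 26.4% of all genes were lower and 29.2% higher, with a core median of -0.60 and an all-gene median of 0.00. No core gene was higher with DESeq2 either, which called 46 lower, and its share over all genes is not given. COX6B led, with 581, 1460 and 2633 CPM in female bodies and 135, 248 and 337 CPM in ovaries (-2.67 ± 0.42, adjusted p = 1.51e-05), followed by UQCR-14 (-2.06 ± 0.29, adjusted p = 3.77e-06), which lies wholly within CG32576 on the other strand, and ATPsynG (-1.44 ± 0.26, adjusted p = 6.08e-05). The 3 highest values, for ND-B18 (0.55 ± 0.30), ND-13B (0.33 ± 0.36) and UQCR-11 (0.25 ± 0.32), were not called, and those of ND-13B and UQCR-11 were below 0 with RLE scaling. The mitochondrial ribosome again went another way, with 45 of 71 genes higher in ovary and 0 lower (median 0.95). The 13 mitochondrially encoded subunits were lower, 11 of them called (median -1.97), and all 13 muscle markers were lower (median -3.44), whose part was not tested.

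Male bodies stood above female bodies for 56 of 63 core genes, with 0 lower, a core median of 1.63 and an all-gene median of 1.26, where 61.8% of genes were called higher and 13.6% lower. Relative to all genes the core genes were thus higher by 0.36, and on the control genotypes alone 0 core genes were called and that difference was -0.03. DESeq2 called 53 higher and 0 lower, and without the mitochondrially encoded genes 36 were higher and 2 lower. The shares of all genes called in these other settings are not given.  The largest differences were those of ND-MWFE (2.38 ± 0.29, adjusted p = 2.21e-07), ND-39 (2.29 ± 0.35, adjusted p = 5.2e-06) and COX5B (2.21 ± 0.27, adjusted p = 2.23e-07), and the smallest those of UQCR-6.4 (0.15 ± 0.31, adjusted p = 0.669), ND-B16.6 (0.23 ± 0.19, adjusted p = 0.282) and ND-19 (0.67 ± 0.37, adjusted p = 0.11), all 3 below 0 when the mitochondrially encoded genes were left out. ND-39 had 33.2, 55.7 and 192 CPM in female bodies and 110, 388 and 588 CPM in male bodies, with an overlap, since the lowest male library lay below the highest female one. UQCR-6.4 had 22.2, 27.4 and 37.7 CPM and 13.9, 26.6 and 67.9 CPM, with the sexes mixed.

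The larval CNS split the core genes against female bodies: 21 were higher and 22 lower, where 31.7% and 31.3% of all genes were, and the core median was -0.19 with an all-gene median of 0.00. ND-13B rose from 0.733, 0.942 and 4.65 CPM to 6.13, 7.30 and 10.3 CPM (2.47 ± 0.35, adjusted p = 2.65e-06), as did ND-B12 (2.06 ± 0.32, adjusted p = 6.73e-06) and ND-B18 (1.98 ± 0.31, adjusted p = 7.52e-06), all 3 accessory subunits of complex I. COX6B fell to 133, 154 and 178 CPM (-3.32 ± 0.43, adjusted p = 7.93e-07), as did UQCR-6.4 (-2.42 ± 0.33, adjusted p = 1.37e-06) and ATPsynE (-2.34 ± 0.52, adjusted p = 0.000438). On the control genotypes alone 0 core genes were higher and 25 lower, and the share of all genes called in that setting is not given. Tissue and stage cannot be told apart here, since the CNS came from larvae.

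The core genes differed widely in how well the 2 libraries of a group matched. Averaged over the 15 groups, the absolute log2 ratio between replicates ran from 0.27 for ATPsynbeta to 1.84 for ND-B14.7, with a median of 0.567 for the 63 core genes and 0.525 for 11822 nuclear genes at or above the lowest core mean level. ND-B14.7, an accessory subunit of complex I, had 27.9 and 313 CPM in the replicates of XX female bodies, 796 and 71.7 CPM in XYYcongo male bodies and 169 and 6.86 CPM in XXYcongo ovaries. ATPsynCF6 (coupling factor 6) and ATPsynE followed at 1.28 and 1.19, and COX8 and ND-B15 both came to 1.09. The larval CNS differed from the adult groups, with core medians of 0.202 against 0.631, as it did for the 11822 nuclear genes, at 0.273 against 0.560. The 26 core genes with under 800 bases of exon had a median of 0.723, beside 0.713 for the 1413 of those nuclear genes that are as short, against 0.455 for the 37 longer core genes, and the part of transcript length in the differences below was not tested.

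In none of the 10 comparisons of an added Y with its control was a member called by edgeR. For female bodies 0.0% of all 10459 genes tested were called with either Y, for male bodies 0.0% of 12889 and for testes 0.0% of 12743. For ovaries, 0.0113% of genes were called with Yohio and 0.283% with Ycongo, and for the CNS 0.0403% and 0.0101%. Unadjusted, between 0 and 9 members had a p under 0.05 in a comparison, beside 0.466 to 10.9% of all genes. The 9 were core genes in ovaries with Ycongo, where they made up 14.5% of the core and 10.9% of all genes had such a p. DESeq2 called 0 members in each of the 10. With 2 libraries against 2, the median standard error of a core gene was 0.56 in female bodies, 0.48 in male bodies, 0.41 in ovaries, 0.33 in testes and 0.18 in the CNS on the log2 scale. Comparisons within a tissue share its 2 control libraries.

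**Figure D4:**
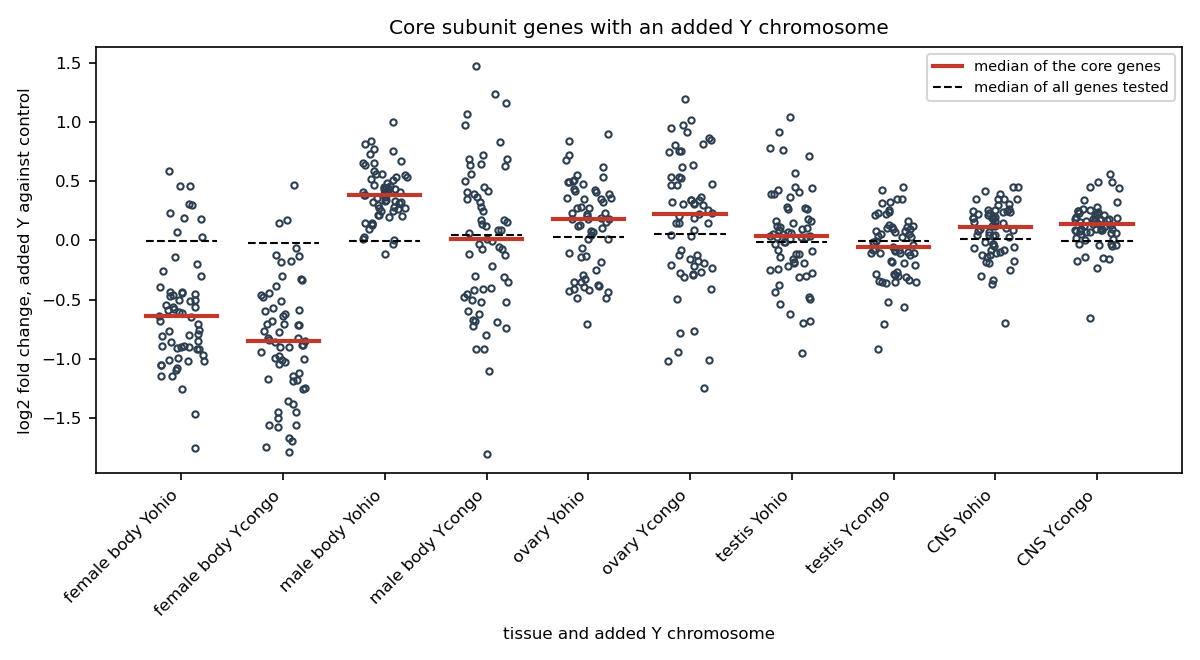
Log2 fold change of each core gene tested (1 point each) for an added Yohio or Ycongo against the control of the same tissue, with the median of the core genes as a solid bar and the median of all genes tested as a dashed line. The points of both female body comparisons lie mostly below 0, those of male bodies with Yohio mostly above, and no single point passed the test.

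In female bodies most core genes lay below the control. With Yohio 53 of 63 lay below 0 with a median of -0.64, and with Ycongo 60 of 63 with a median of -0.85, while the medians of all genes were -0.01 and -0.02. In the authors' deposited tables the core medians are -0.42 and -0.51. Of the core genes 6.35% with Yohio and 11.1% with Ycongo had an unadjusted p under 0.05 (4 and 7 genes), where 9.35% and 4.27% of all genes did. The control libraries themselves were far apart: the core median was 30.1 and 94.4 CPM in XX replicates 1 and 2, 25.9 and 48.3 CPM with Yohio added and 33.2 and 32.3 CPM with Ycongo added. XX replicate 1 therefore lay within the range of the added-Y bodies and XX replicate 2 above all of them. Without XX replicate 2 the medians became 0.17 with Yohio and -0.14 with Ycongo.

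Individual genes of the female bodies followed that library in different degrees. ND-49, of complex I and chromosome 4, had 371 and 160 CPM in XX, 76.1 and 71.0 CPM with Yohio added and 230 and 91.5 CPM with Ycongo added. The XX and XXYohio libraries did not overlap, and the change with Yohio was -1.75 ± 0.56 (adjusted p = 0.519, unadjusted p = 0.0126). COX5B had 6.76 and 11.96 CPM in XX against 2.63 and 3.70 CPM in XXYohio (-1.47 ± 0.59, adjusted p = 0.519), again without overlap. COX7B had 12.6 and 54.9 CPM in XX and 11.1 and 8.19 CPM in XXYcongo (-1.79 ± 0.74, adjusted p = 0.905), a gap that rests on XX replicate 2. COX7AL2, at 2.35 and 16.3 CPM in XX, and ND-13B, at 0.897 and 4.65 CPM, were also among the lowest values with Ycongo, and again replicate 2 was the high one. At the other end were ATPsynCF6 (0.58 ± 0.96) and ND-B14.7 and COX7A (both 0.46) with Yohio, and UQCR-6.4 (0.47 ± 0.38), ND-B16.6 (0.17 ± 0.38) and ND-AGGG (0.15 ± 0.38) with Ycongo.

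Other transcripts also differed across the female bodies, not all in the order of the core medians. Mitochondrially encoded subunits took 24.8 and 9.20% of the counts in XX, 32.7 and 5.18% with Yohio added and 25.1 and 33.0% with Ycongo added, so the libraries with the highest core medians, XX replicate 2 and XXYohio replicate 2, had the lowest mitochondrial shares. Of those 13 subunits 12 lay above 0 with Yohio (median 1.35) and 13 with Ycongo (median 1.64), with 0 called. Muscle markers summed to 11690 and 14040 CPM in XX, 4634 and 5390 CPM with Yohio added and 8347 and 8073 CPM with Ycongo added, lower with either Y, and all 13 lay below 0 with Yohio (median -1.57) and 12 with Ycongo (median -0.72). All 13 tested TCA cycle genes lay below 0 with Ycongo and 12 with Yohio. All 8 genes listed as subunits with other names, Cyt-c-d among them, lay below 0 with either. Between XX replicates 1 and 2, 59 of 63 core genes were higher in replicate 2 with a median of 1.12, and the medians of all genes were 0.49 for those under 800 bases of exon and -0.27 in the longest length class. Photoreceptor markers summed to 1245 and 1535 CPM in XX and to 586 to 708 CPM in the 4 added-Y libraries, and gut markers to 1766 and 2914 CPM against 1022 to 1551 CPM. Female germline markers went the other way, at 5479 and 3755 CPM in XX and 5751 to 8959 CPM with a Y added. The part of muscle, photoreceptors, gut, germline, the mitochondrial share and transcript length in these differences was not tested.

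**Figure D5:**
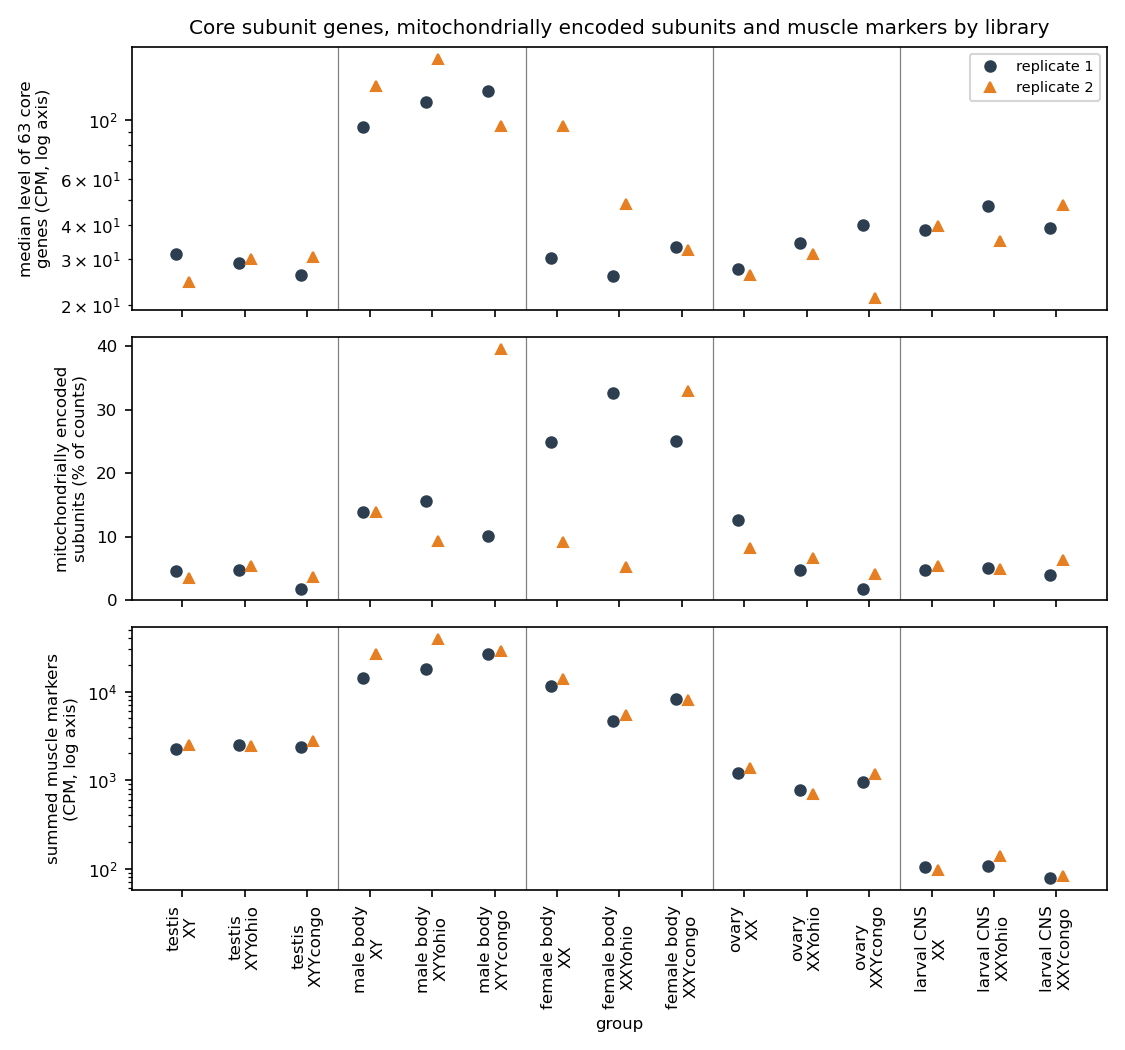
Values of the 2 libraries of each of the 15 groups (circle for replicate 1, triangle for replicate 2), with the level of the core genes, the mitochondrially encoded subunits and the muscle markers in separate panels. In the top panel the XX female bodies lie farthest apart of the 15 pairs, at core medians of 30.1 and 94.4 CPM, while the CNS pairs lie close together.

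In male bodies most core genes lay above the control with Yohio, and with Ycongo they lay on both sides of 0. With Yohio 61 of 63 core genes lay above 0 (median 0.39), and with Ycongo 32 of 63 (median 0.01). Core medians per library were 93.6 and 134 CPM in XY, 116 and 169 CPM in XYYohio and 128 and 94.5 CPM in XYYcongo, so the groups overlap, and without XYYohio replicate 2 the Yohio median was -0.05. Of 13 muscle markers 12 lay above 0 with Yohio (median 0.59), and their part was not tested. The highest core values with Yohio were those of ATPsynCF6 (1.00) and ND-B14.7 (0.84), followed by ND-PDSW. With Ycongo COX6B was highest (1.47), and its XY and XYYcongo libraries overlapped. ND-13B had 5.69 and 8.86 CPM in XY, 10.8 and 8.91 CPM in XYYohio and 2.36 and 1.73 CPM in XYYcongo (-1.80 ± 0.53 with Ycongo, adjusted p = 0.656, and -2.25 ± 0.53 for Ycongo against Yohio, adjusted p = 0.693). Its XYYcongo libraries were below all others. ATPsynC had 1325 and 2033 CPM in XY and 2996 and 4784 CPM in XYYcongo (1.23 ± 0.57, adjusted p = 0.659), also without overlap, and ND-SGDH had 265 and 273 CPM and 326 and 863 CPM (1.16 ± 0.52, adjusted p = 0.656). Among paralogs, COX7AL had 63 and 26.7 CPM in XY and 13.3 and 17.3 CPM in XYYcongo (-1.53 ± 0.55, adjusted p = 0.656).

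In ovaries the core genes lay slightly above the control, with 42 of 62 above 0 for Yohio (median 0.18) and 40 of 62 for Ycongo (median 0.22), against all-gene medians of 0.03 and 0.05. The mitochondrially encoded subunits did not go with them: all 13 lay below 0 with Ycongo (median -2.86), and 5 were called, among them mt:ND3 at -6.45 ± 0.62 (adjusted p = 0.00499) and mt:ND2 at -4.28 ± 0.51 (adjusted p = 0.00981), both subunits of complex I. All 13 also lay below 0 with Yohio (median -1.20), with 0 called. Their share of counts was 12.7 and 8.15% in XX, 4.80 and 6.59% in XXYohio and 1.81 and 4.13% in XXYcongo. The nuclear subunit ND-SGDH had 54.7 and 56.9 CPM in XX and 80.5 and 179 CPM in XXYcongo (1.19 ± 0.34, adjusted p = 0.258). ND-24, which belongs to the NADH-oxidising module, had 12.2 and 15.3 CPM and 25.4 and 30.2 CPM (1.02 ± 0.32, adjusted p = 0.291), and SdhA had 151 and 169 CPM and 219 and 418 CPM (0.97 ± 0.31, adjusted p = 0.289). For these 3 the XXYcongo libraries lay above the XX ones without overlap, and none passed the test. With Yohio, SdhC had 12.2 and 19.9 CPM in XX against 35.5 and 22.0 CPM in XXYohio (0.89 ± 0.38, adjusted p = 0.704).

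The 2 XXYcongo ovaries disagreed over some core genes. ND-B14.7 stood at 169 and 6.86 CPM there and at 44.8 to 81.6 CPM in the other 4 ovaries, and ATPsynE at 46.9 and 10.1 CPM. Without XXYcongo replicate 1, changes with Ycongo on the log2 scale included ND-B14.7 (-3.39), ATPsynE (-2.66), UQCR-11 (-1.97), COX7A (-1.88) and COX7C (-1.80). ATPsynF (-1.675), COX8 (-1.58) and ND-B16.6 (-1.40) were also lower, and ND-SGDH (1.60) and SdhA (1.30) were higher. Without XXYcongo replicate 2, ND-B14.7 stood at 1.43 and ND-19 at 1.42. These genes were picked for their low p in those fits, where a lone library is assumed to vary like the other groups. ND-B14.7 thus changed sign with the library left out.

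In testes the core genes lay on both sides of 0, where 36 of 63 core genes lay above 0 with Yohio (median 0.04) and 27 with Ycongo (median -0.05), and the lowest unadjusted p was that of UQCR-14 with Yohio, at 38.2 and 45.1 CPM in XY and 24.9 and 26.5 CPM in XYYohio (-0.70 ± 0.22, adjusted p = 0.974). COX4 had 198 and 320 CPM in XY and 136 and 131 CPM in XYYohio (-0.96 ± 0.37, adjusted p = 0.974), and ND-ACP, the mitochondrial acyl carrier protein, had 26.1 and 32.4 CPM in XY and 19.6 and 16.5 CPM in XYYcongo (-0.70 ± 0.24, adjusted p = 1.00). In each of these 3 the groups did not overlap. The highest core values with Yohio were those of ATPsynF (1.04), UQCR-11 (0.92) and ND-MLRQ (0.78), and with Ycongo that of ND-B15 (0.45). Among the paralogs, SdhCL was at 331 and 712 CPM in XY, 307 and 283 CPM in XYYohio and 747 and 326 CPM in XYYcongo. Its XYYohio libraries lay below the other 4, as did those of ND-24L, SdhAL, COX4L, COX5BL and ATPsynepsilonL, and UQCR-11L was highest in both XY libraries, with 0 paralogs called. The share of all genes in such an order is not given here. The other 4 include XY replicate 2 and XYYcongo replicate 1, the libraries with high male germline sums. The 23 tested paralogs had a median of -0.01 with Yohio and 0.12 with Ycongo.

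In the larval CNS, where replicates matched best, 41 of 62 core genes lay above 0 with Yohio (median 0.11) and 51 of 62 with Ycongo (median 0.14), against all-gene medians of 0.01 and 0.00. ATPsynD, a stalk subunit of ATP synthase, had 121 and 136 CPM in XX, 186 and 153 CPM with Yohio added and 169 and 175 CPM with Ycongo added, without overlap between the control and either Y. Its change was 0.42 ± 0.15 with Yohio (adjusted p = 0.819). With Ycongo it was 0.45, and in the authors' deposited table for that comparison it is 0.44 with an adjusted p of 0.0422, the 1 member called in any of the 10 deposited tables. ND-B17.2 had 16.5 and 13.2 CPM in XX and 23.5 and 19.7 CPM in XXYcongo (0.56 ± 0.22, adjusted p = 0.855). ND-MLRQ had 6.66 and 9.76 CPM in XX and 4.85 and 5.39 CPM in XXYcongo (-0.66 ± 0.35, adjusted p = 0.855). Of the other lists, all 12 tested glycolytic genes lay above 0 with Yohio (median 0.62) and 11 with Ycongo (median 0.26), with 0 called. Neuron markers summed to 2574 and 2593 CPM in the controls, to 1701 and 2826 CPM with Yohio added and to 1971 and 1883 CPM with Ycongo added. Fat body markers reached 5216 CPM in XXYohio replicate 1 and lay between 777 and 1627 CPM in the other 5. The part of either in these differences was not tested.

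The direct comparison of Ycongo with Yohio called 0 members in each of the 5 tissues, where 0.0% of all genes were called in female body, male body and testis, 0.0113% in ovary and 0.0302% in CNS. Unadjusted, 0 to 11 members had a p under 0.05, beside 1.31 to 8.15% of all genes, and DESeq2 called 0. The 11 were in male bodies, where 6.64% of all genes did. In the CNS ND-51L1 had 0.491 and 0.696 CPM in XXYohio and 2.25 and 2.28 CPM in XXYcongo (1.91 ± 0.63, adjusted p = 0.957), with XX at 1.66 and 1.04 CPM between them. In ovaries ND-PDSW had 15.6 and 10.5 CPM in XXYohio and 41.2 and 18.04 CPM in XXYcongo (1.18 ± 0.51, adjusted p = 0.6). In male bodies ATPsynF had 123 and 135 CPM in XYYohio and 65.8 and 29.0 CPM in XYYcongo (-1.44 ± 0.44, adjusted p = 0.693). None of these passed the test.

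The differences between tissues in the response to an added Y were tested for 2 pairs, female bodies with male bodies and female bodies with ovaries. They called 0 members in any of the 4 tests, where 0.0% of all genes were called. Core medians of the difference were -1.05 with Yohio and -0.85 with Ycongo for female minus male body, and -0.80 and -1.08 for female body minus ovary. Unadjusted, 6 members with Yohio and 7 with Ycongo had a p under 0.05 in the first pair, where 5.02% and 4.79% of all genes did. In the second pair there were 10 and 16 members, all of them core genes (15.9% and 25.4% of the core), beside 8.31% and 9.30% of all genes. DESeq2 called COX4 and UQCR-C1 in the test of female body minus ovary with Ycongo and 0 members in the other 3. SdhC had the lowest p of the second pair, with a change in female bodies from 64.7 and 75.2 to 22.6 and 32.3 CPM with Yohio against the rise in ovaries given above (difference -2.14 ± 0.58, adjusted p = 0.58). All 4 tests use the XX female bodies, of which replicate 2 stood apart.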

How the data were processed

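Poly(A) RNA libraries were paired-end sequenced on an Illumina instrument, per the labels' protocols. The submitters' processing notes name DESeq2 1.8.1, R 3.2.3, SAMtools, Bowtie2 and Trim Galore. For the genome build, the counting tool and the use of strand the sources used here give nothing. The authors deposited whole-number read counts per gene for each of 30 libraries. They also deposited comparison tables with log2 fold changes and adjusted p-values, of which the 10 of an added Y against its control were used, reading "cs" in their names as Yohio, and the 5 combined ones were not.

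Members were matched by symbol to the 16649 of 16868 gene identifiers with a name in the Ensembl annotation BDGP6.54, which also gave exon lengths and chromosome arms. The members and the lists of other genes were chosen with earlier results of these data known. Genes were filtered with filterByExpr (minimum count 10), scaled by TMM and tested with edgeR 4.0.16 (R 4.3.3) by quasi-likelihood, with a Benjamini-Hochberg adjusted p below 0.05 over all genes tested counted as called. Each tissue had a fit of its own (6 libraries, 3 residual degrees of freedom), tests of a difference between tissues used 12 libraries, and tissue contrasts used all 30 (15 residual degrees of freedom). A standard error is the absolute log2 fold change divided by the square root of F. The procedure was tested on simulated counts, with less spread between libraries than these data have. That test therefore does not show what changes the comparisons here could have missed.

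Any member could be named. Members called with an added Y, the 3 highest and 3 lowest per added-Y comparison, every paralog, and the 3 core genes with the largest change in each direction per tissue contrast were to be given, with up to 4 called genes of each other list. Some of these are left out or lack levels. A gene named for its low p or its replicate gap alone was chosen after its values were seen. Where groups are said not to overlap, the share of all genes without overlap is not given unless stated. Counts of members called in settings other than the reported fit also stand without the share of all genes called there. DESeq2 1.42.0, RLE scaling, no filter, no mitochondrially encoded genes, control genotypes only, a replicate block and leaving out each library were tried. Total counts limit precision, and limits from 3 counts cover counting error only.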

Additional observations from a re-analysis of the deposited data

How the results depend on the processing

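Members called in the tissue contrasts changed by over 1.5 times in these settings. The share of all genes called in each setting is not given, so the counts do not set the members apart from other genes. With the control genotypes alone, 29 were called for CNS against female body (48 in the reported fit) and 22 for male against female body (80). For ovary against female body 30 were called, 48 with RLE scaling, 51 with DESeq2 and 19 to 41 when 1 library was left out, 19 of them without XXYohio female body replicate 2, and the core median relative to all genes moved from -0.60 to -1.77 with the control genotypes alone. No member was called in an added-Y comparison as reported. Without the filter on low counts 1 was called in ovaries with Ycongo (ND-SGDH), 10 in the test of female body minus ovary with Ycongo, where DESeq2 called 2, and 2 in that with Yohio (SdhC and ND-49). Leaving out 1 library gave 0 to 10 members in ovaries with Ycongo, and 0 to 8 for Ycongo against Yohio there, with 8 called without XXYcongo replicate 1 and 4 without replicate 2. It moved the core median between -1.17 and 0.17 in female bodies with Yohio, -0.05 and 0.64 in male bodies with Yohio, -0.28 and 0.55 in ovaries with Ycongo, and -0.18 and 0.13 in testes with Ycongo. The causes were not tested.

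Some named genes changed sign. For male against female body, UQCR-6.4 was at -0.19 with RLE scaling and with DESeq2, -0.67 without the filter, -0.80 without mitochondrially encoded genes, -0.70 with the control genotypes alone and -0.37 to 0.39 with 1 library left out. In the same order of settings, ND-B16.6 was at -0.13, -0.60, -0.72 and -0.66, and ND-19 was at -0.17 without the filter, -0.29 without mitochondrially encoded genes and -0.54 with the controls alone. For ovary against female body, ND-13B was at -0.05 with RLE scaling and DESeq2 and -1.04 with the controls alone, and UQCR-11 at -0.13 with RLE scaling, -0.12 with DESeq2, -0.01 without the filter, -0.15 with the controls alone and -0.02 to 0.47 with 1 library left out. With 1 library left out, the added-Y values ranged over 0 as follows. In female bodies with Yohio these were ATPsynCF6 (-0.47 to 2.58), ND-B14.7 (-0.42 to 3.11), COX7A (-0.11 to 1.47) and COX7AL2 (-2.33 to 0.49), and with Ycongo COX7AL2 (-2.58 to 0.24). In male bodies with Yohio they were ATPsynCF6 (-0.20 to 1.84), ND-B14.7 (-0.55 to 2.23), ND-PDSW (-0.11 to 1.37), UQCR-6.4L (-1.48 to 0.14) and ATPsynepsilonL (-2.74 to 0.29). In ovaries with Yohio they were COX7A (-1.27 to 0.04) and ATPsynCF6 (-0.98 to 0.12), and in the CNS COX5BL (-1.89 to 0.59 with Yohio, -0.95 to 1.34 with Ycongo) and ND-19 (-0.53 to 0.02 with Ycongo).

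Whether the replicate numbers pair the libraries is not settled, since correlations of same-numbered deviations within a tissue ran from -0.39 to 0.54. The highest were those of XY with XYYohio male bodies (0.54) and of XX with XXYohio (0.51) and XXYcongo (0.43) female bodies. With the replicate block 0 members were called in every added-Y comparison, and 83, 81, 60, 46 and 28 in the contrasts of testis with male body, male with female body, testis with ovary, CNS with female body and ovary with female body.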
